A study of Mus musculus with 32 samples.

Results

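The transcripts of 10 genes of the NRF2 antioxidant response were followed in the liver and the epididymal white fat (eWAT) of mice given corticosterone. The list holds Nfe2l2, Nqo1, Gclc, Gclm, Hmox1, Txnrd1, Srxn1, Gsr, Gpx1 and Cat, which were found by matching the 47643 Ensembl gene IDs of the count table to mouse symbols. All 10 matched a single ID, and all 10 had enough counts to be tested in both tissues, among 15187 genes in eWAT and 12391 in liver. The animals were male mice, C57BL/6 in the labels and C57BL/6J in the study's methods, 10 weeks old, that for 7 days drank corticosterone (cort) or vehicle (veh) in their water and ate a purified diet with 20% (normal-protein diet, NPD) or 60% (high-protein diet, HPD) of its energy as protein. The 4 groups of a tissue are written Veh NPD, Cort NPD, Veh HPD and Cort HPD, and each had 4 libraries. Energy from carbohydrate was lower in the HPD, so a diet difference is not one of protein alone. Whether fat and liver libraries of the same number came from the same mouse is not given by the labels, and they do not state that replicates are separate animals, so p-values measure the spread between these libraries.

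NRF2, the transcription factor encoded by Nfe2l2, is controlled largely through the stability of its protein. KEAP1 holds it on a ubiquitin ligase that marks it for destruction, and oxidants or electrophiles that modify KEAP1 let NRF2 build up, pair with a small MAF protein and bind antioxidant response elements in the DNA. Its known target genes make glutathione (Gclc and Gclm, the catalytic and modifier subunits of the rate-limiting ligase), restore reduced glutathione and thioredoxin (Gsr and Txnrd1), repair over-oxidized peroxiredoxins (Srxn1, sulfiredoxin), reduce quinones (Nqo1) and break down heme (Hmox1). Gpx1 and Cat encode glutathione peroxidase and catalase, which remove hydrogen peroxide and are abundant in liver.

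The core of the antioxidant response element, TGACNNNGC on either strand, was looked for in the RefSeq promoter windows of the members (GRCm38.p6, from 250 bases before to 50 after the start of transcription), to show where these promoters hold the letters that NRF2 is known to bind. Of the 10 genes, 7 had a window in the table (Nfe2l2, Nqo1, Gclm, Txnrd1, Srxn1, Gpx1 and Cat), and 4 of them held a match, against 14.0% of all 27025 genes with a window and 12.4% of all 32851 windows. The palindrome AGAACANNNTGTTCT, a full glucocorticoid response element, was in no window of a member and in 3 windows in all, and the motifs share no match. The stretches around the matches are printed along the gene's strand with the match in capitals. On the opposite strand of Gclm, Txnrd1 and Srxn1 the match reads as the core, and that of Srxn1 lies inside the transcript. The Txnrd1 match lies inside the span of its gene (chromosome 10 from 82833951 to 82897712), before a start of transcription within that span.
Nfe2l2, chr2:75704870-75704913, minus strand: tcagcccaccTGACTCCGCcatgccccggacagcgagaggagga
Gclm, chr3:122245398-122245456, plus strand: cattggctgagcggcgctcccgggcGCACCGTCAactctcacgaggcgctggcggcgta
Txnrd1, chr10:82859089-82859147, plus strand: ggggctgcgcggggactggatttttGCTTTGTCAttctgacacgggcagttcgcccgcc
Srxn1, chr2:152105542-152105571, plus strand: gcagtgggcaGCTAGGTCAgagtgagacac
A match is a description of these letters and no evidence of binding. The windows reach only 250 bases before the start, so a window without a match, as for Nqo1, does not show that the gene has no element.

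RNA was read with QuantSeq, which counts each transcript once from its 3′ end, and the totals were 9794683 to 18057936 counts per library in eWAT and 8933307 to 17447524 in the 15 liver libraries fitted. Levels are CPM (counts scaled to a common library size) relative to totals scaled by TMM factors within each tissue, and changes are log2 fold changes from edgeR's quasi-likelihood test, called at a Benjamini-Hochberg adjusted p under 0.05 over all genes tested. Adipocyte markers summed to 43572 to 82711 CPM in eWAT and hepatocyte markers to 86415 to 281010 CPM in liver, as the tissue labels say. A liver library, Veh HPD replicate 4, stood apart on the second principal component (-93.5, the other 15 from -15.07 to 30.92) and was left out of the fits; values with it are given beside the results that turn on it. In eWAT, Cort HPD replicate 4 held epididymis transcripts, with 9 testis and epididymis markers summing to 6976 CPM against at most 4.84 CPM in the other 15 eWAT libraries. Liver Cort HPD replicate 1 had a TMM factor of 0.754, against 0.911 to 1.11 in the other 14 liver libraries fitted.

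In the liver, cort raised Srxn1 on both diets and, on the HPD, Gclm and Nqo1, and it lowered Gpx1 on the NPD. Of the 10 genes, 2 were called on the NPD (1 higher, 1 lower), where 12.6% of all genes tested were called (6.84% higher, 5.79% lower), and 3 on the HPD, all higher, where 9.89% were (4.75% higher, 5.14% lower). The median log2 fold change of the 10 was 0.31 on the NPD and 0.33 on the HPD, beside -0.005 and -0.004 over all genes tested. Cort and veh libraries did not overlap for 2 of the 10 on the NPD (18.5% of all genes) and for 4 of the 10 on the HPD (21.2% of all genes). In tissue RNA, fewer cells of a type and less RNA per cell cannot be told apart.

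Srxn1 (ENSMUSG00000032802, GRCm38 chromosome 2 from 152105516 to 152111376) encodes sulfiredoxin, which returns over-oxidized peroxiredoxins to use. On the NPD its level in liver was 33.5, 27.0, 30.7 and 28.7 CPM in the veh libraries and 47.8, 73.1, 57.4 and 125.2 CPM in the cort libraries. On the HPD it was 38.7, 37.7 and 25.5 CPM with veh and 128.4, 155.5, 86.8 and 101.9 CPM with cort. Every cort library of liver lay above every veh library that was fitted, on either diet. The log2 fold change was 1.34 on the NPD (edgeR, SE 0.25, adjusted p = 0.0017) and reached 1.80 with the HPD (SE 0.28, adjusted p = 5.2e-04), and both stayed called in all 15 fits that left out 1 library. Cort NPD replicate 4 was the highest of its group, and without it the NPD change was 0.97 (adjusted p = 0.0029). The library left out of the fits, Veh HPD replicate 4, held 285.4 CPM, more than any other liver library, and with all 16 libraries neither call remained (log2 fold change 1.35, adjusted p = 0.24 on the NPD, and 0.32, adjusted p = 0.80 on the HPD).

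Nqo1 (ENSMUSG00000003849, chromosome 8 from 107388225 to 107403206), the quinone reductase often read as a marker of NRF2 activity, was a gene of few counts in both tissues, with 9 to 150 counts in a liver library of the fit. Its liver level on the HPD was 2.68, 4.58 and 2.91 CPM with veh and 7.88, 7.73, 11.5 and 8.24 CPM with cort. These groups did not overlap, and the log2 fold change was 1.39 (edgeR, SE 0.43, adjusted p = 0.048). This call did not survive 9 of the 15 fits that left out 1 library, with changes from 1.24 to 1.67 and adjusted p from 0.054 to 0.19. These were the fits without Veh NPD replicate 3, Cort NPD replicate 2, or any 1 of the 3 Veh HPD and 4 Cort HPD libraries. With all 16 liver libraries the change was 0.27 (adjusted p = 0.82), and the call was also lost with library totals (1.17, adjusted p = 0.064) and when low-count genes were kept in the fit (1.40, adjusted p = 0.086). On the NPD the level was 0.790, 0.956, 1.30 and 4.23 CPM with veh and 2.23, 3.88, 2.42 and 5.71 CPM with cort, so that Veh NPD replicate 4 lay among the cort libraries. The change there was 0.97 (SE 0.43, adjusted p = 0.16), and without that veh library it was 1.81 (adjusted p = 0.0030).

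The ligase that starts glutathione synthesis has its subunits on different chromosomes. Gclm (ENSMUSG00000028124, chromosome 3 from 122245557 to 122270732), the modifier subunit, was at 79.5, 86.5 and 100.7 CPM in liver of Veh HPD and at 164.5, 142.8, 167.6 and 125.7 CPM in Cort HPD. No cort library reached down to the veh libraries, and the log2 fold change was 0.76 (edgeR, SE 0.15, adjusted p = 0.0025). It was 0.88 (adjusted p = 0.0019) with all 16 libraries, where the library otherwise left out held 64.3 CPM, and the call was kept in all 15 fits without 1 library. On the NPD the ranges met, 79.7 to 102.5 CPM with veh and 100.1 to 116.2 CPM with cort (log2 fold change 0.33, SE 0.14, adjusted p = 0.12). A pseudogene, Gm6061, overlaps Gclm on its strand, so its reads may be shared.

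Gclc (ENSMUSG00000032350, chromosome 9 from 77754535 to 77794485), the catalytic subunit, had wider ranges than Gclm in liver. Its liver level ran from 72.6 to 136 CPM in Veh NPD, 54.9 to 144 CPM in Cort NPD, 87.2 to 138.7 CPM in Veh HPD and 92.1 to 241.8 CPM in Cort HPD. The log2 fold change with cort was -0.18 (95% interval -0.91 to 0.55) on the NPD and 0.53 (95% interval -0.26 to 1.32) on the HPD, neither of them called. The groups overlapped on both diets.

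Gpx1 (ENSMUSG00000063856, chromosome 9 from 108338903 to 108340343), the main cytosolic glutathione peroxidase, moved the other way. In liver it was at 2302, 2840, 2780 and 2389 CPM in Veh NPD and at 1877, 1733, 1247 and 1292 CPM in Cort NPD, with no overlap. The log2 fold change was -0.75 (edgeR, SE 0.16, adjusted p = 0.0030), and it stayed called in all 15 fits without 1 library and with all 16 libraries (adjusted p = 0.018). On the HPD it was at 2605, 2482 and 2819 CPM with veh and 2472, 2129, 2240 and 2144 CPM with cort. Those groups did not overlap either, but the highest cort and the lowest veh library were close, and the change of -0.23 (SE 0.17, adjusted p = 0.43) was not called. Catalase, Cat (ENSMUSG00000027187, chromosome 2 from 103453849 to 103485160), lay between 1081 and 1585 CPM in the 15 libraries, with changes of -0.07 and -0.18 on the NPD and the HPD and adjusted p of 0.82 and 0.52.

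Hmox1 (ENSMUSG00000005413, chromosome 8 from 75093621 to 75100589), which encodes the inducible heme oxygenase and is rich in macrophages that clear red blood cells, was at 2.69, 4.25, 4.16 and 2.71 CPM in liver of Veh NPD and at 4.23, 5.78, 7.34 and 8.94 CPM in Cort NPD. The groups overlapped at Veh NPD replicate 2 and Cort NPD replicate 1 only, and the log2 fold change of 0.94 (edgeR, SE 0.43, adjusted p = 0.17) was not called. On the HPD its level ranged from 4.73 to 18.8 CPM with veh and from 5.002 to 17.5 CPM with cort (log2 fold change -0.10, 95% interval -0.99 to 0.79). The summed level of 10 macrophage markers was 209.5 to 308.1 CPM in the veh livers and 99.4 to 220.2 CPM in the cort livers, and its part in the Hmox1 values was not tested.

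The remaining members did not pass the test with cort in liver. Nfe2l2 itself (ENSMUSG00000015839, chromosome 2 from 75675513 to 75704641) was at 50.6, 37.7, 55.1 and 40.5 CPM in Veh NPD and 71.0, 43.1, 62.6 and 59.1 CPM in Cort NPD, with a log2 fold change of 0.36 (edgeR, SE 0.17, adjusted p = 0.19). On the HPD it was at 39.8 to 60.5 CPM with veh and 39.9 to 52.3 CPM with cort, a change of -0.003 (SE 0.19). Txnrd1 (ENSMUSG00000020250, chromosome 10 from 82833951 to 82897712), thioredoxin reductase, had log2 fold changes of 0.30 and 0.23 on the NPD and the HPD (adjusted p = 0.28 and 0.47). Eid3 overlaps Txnrd1 on its strand, so reads may be shared. Gsr (ENSMUSG00000031584, chromosome 8 from 33652523 to 33698163), glutathione reductase, was at 24.0 to 33.9 CPM in Veh HPD and 33.4 to 48.8 CPM in Cort HPD (log2 fold change 0.42, SE 0.16, adjusted p = 0.11) and differed by -0.01 on the NPD. The hepatocyte marker sum was itself highest in Cort HPD livers, 168229 to 281010 CPM against 86415 to 149464 CPM in the other groups, and the red blood cell sum was 5271 to 7622 CPM there and 1358 to 3544 CPM elsewhere. Adipocyte markers in liver summed to 2228 to 4440 CPM with veh and 188.7 to 661.9 CPM with cort. That list includes Car3, and its sum was not split by gene, so it does not show that these transcripts came from adipocytes. The part of these marker sums in the members' values was not tested.

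**Figure D1:**
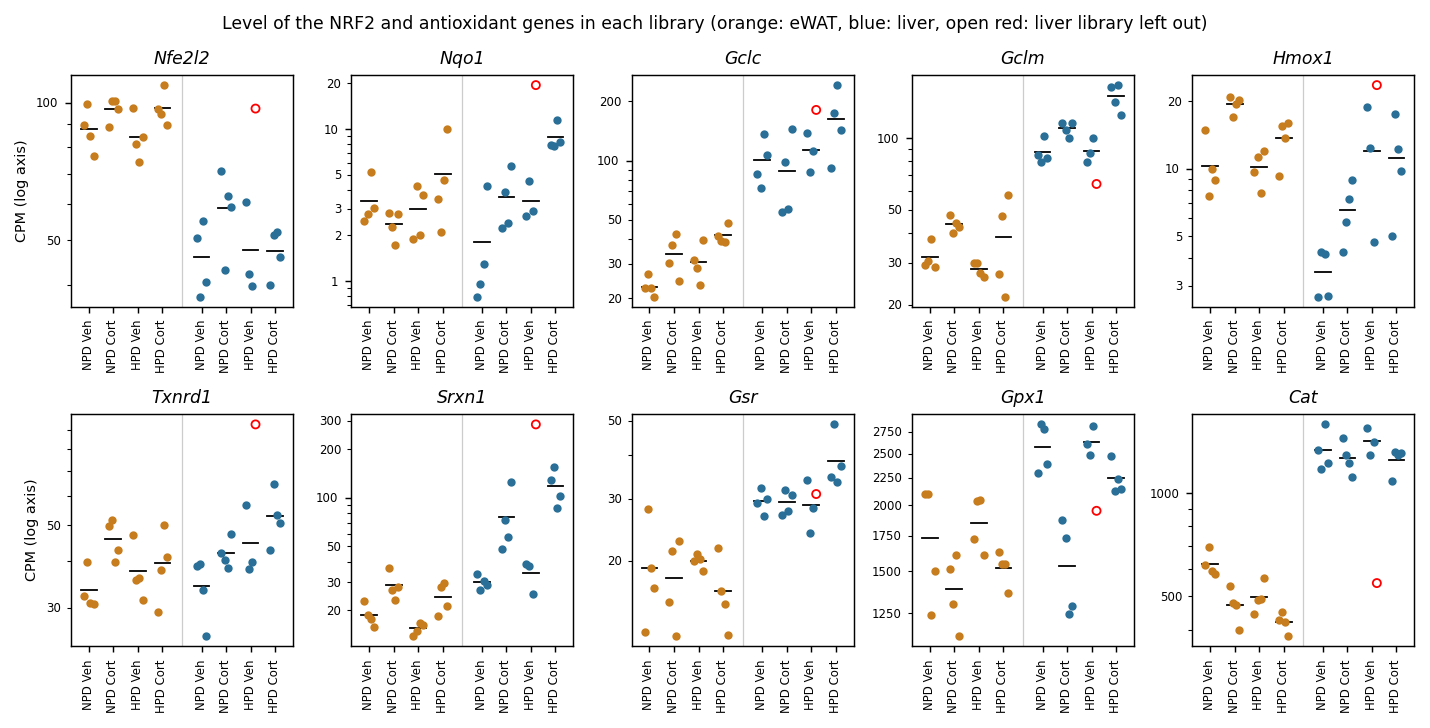
Level of each gene in each library, in CPM on a log axis with its own range per panel, for the 4 groups of eWAT (orange, left) and liver (blue, right). CPM are scaled within each tissue, so heights are not to be compared between eWAT and liver. Points are libraries, black bars are group means, and the open red circle is liver Veh HPD replicate 4, scaled in a fit of all 16 liver libraries and left out of the means; Srxn1 in liver shows 25.5 to 38.7 CPM in the veh libraries fitted and 47.8 to 155.5 CPM in the cort libraries.

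In eWAT, cort raised Srxn1 on both diets and Hmox1 on the NPD, and it lowered Cat on the NPD. Of the 10 genes 3 were called on the NPD (2 higher, 1 lower), where 7.98% of all genes tested were called (4.05% higher, 3.93% lower), and 1 on the HPD, higher, where 6.09% were (3.46% higher, 2.63% lower). The median log2 fold change of the 10 was 0.31 and 0.32 on the NPD and the HPD, beside -0.02 and -0.002 over all genes. Libraries did not overlap for 4 of the 10 on the NPD (14.9% of all genes) and for 1 of the 10 on the HPD (11.3% of all genes).

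Srxn1 in eWAT was at 22.7, 18.6, 17.6 and 15.8 CPM in Veh NPD and 36.5, 26.9, 23.3 and 28.1 CPM in Cort NPD. On the HPD it was at 13.9, 14.9, 16.7 and 16.4 CPM with veh and 18.4, 27.8, 29.8 and 21.2 CPM with cort. The cort libraries lay above the veh libraries of the same diet without overlap. The log2 fold changes were 0.62 (edgeR, SE 0.19, adjusted p = 0.037) and 0.65 (SE 0.19, adjusted p = 0.036), so that Srxn1 was the only member called in each of the 4 comparisons of cort with veh. Both eWAT calls were near the threshold: the NPD call was lost in 6 of the 16 fits without 1 library (Veh NPD replicates 2, 3 and 4, Cort NPD replicates 1, 2 and 4), with changes from 0.48 to 0.65 and adjusted p from 0.057 to 0.18. The HPD call was lost in 5 (Veh HPD replicates 1, 2 and 3, Cort HPD replicates 2 and 3), with changes from 0.54 to 0.69 and adjusted p from 0.052 to 0.14. Both were also lost with library totals in place of TMM factors (adjusted p = 0.082 and 0.052).

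Hmox1 in eWAT was at 14.9, 7.52, 9.95 and 8.89 CPM in Veh NPD and 20.9, 17.1, 19.4 and 20.2 CPM in Cort NPD, with no overlap. The log2 fold change was 0.91 (edgeR, SE 0.23, adjusted p = 0.013) and was lost in 1 of 16 fits, without Veh NPD replicate 2 (0.78, adjusted p = 0.056). On the HPD the levels were 9.65, 11.2, 7.83 and 11.9 CPM with veh and 9.28, 15.6, 13.8 and 15.96 CPM with cort, and Cort HPD replicate 1 lay among the veh libraries (log2 fold change 0.42, SE 0.23, adjusted p = 0.34). The macrophage marker sum overlapped between all 4 groups of eWAT, at 756.3 to 1170 CPM. The red blood cell sum was 12684 to 25856 CPM in Cort HPD and 3619 to 9273 CPM in the other groups, and its part was not tested.

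Cat in eWAT was at 615.2, 697.2, 591.1 and 581.1 CPM in Veh NPD and 535.9, 478.7, 471.1 and 397.8 CPM in Cort NPD, lower with cort in every library. The log2 fold change was -0.40 (edgeR, SE 0.12, adjusted p = 0.032), and the call was lost in 5 of 16 fits, those without Veh NPD replicates 1 or 2 or Cort NPD replicates 2, 3 or 4 (-0.41 to -0.33, adjusted p from 0.058 to 0.13). On the HPD the change was -0.24 (SE 0.12, adjusted p = 0.25), with 445.1 to 566.5 CPM in veh and 383.6 to 450.2 CPM in cort. The adipocyte marker sum of these libraries was 43572 to 57201 CPM with cort and 54581 to 82711 CPM with veh. The fibroblast marker sum was 2045 to 2753 CPM with cort and 3055 to 3710 CPM with veh, without overlap, and the part of either was not tested.

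Among the glutathione genes of eWAT, Gclc was at 22.5, 26.4, 22.5 and 20.4 CPM in Veh NPD and 30.2, 37.4, 42.4 and 24.4 CPM in Cort NPD. Its log2 fold change of 0.55 (edgeR, SE 0.17, adjusted p = 0.051) lay just outside the threshold, and DESeq2 (adjusted p = 0.049) and limma voom (0.046) called it, as did edgeR without Veh NPD replicate 2, Veh HPD replicates 3 or 4, Cort NPD replicate 4 or Cort HPD replicate 4 (adjusted p from 0.020 to 0.047). It was 0.45 (adjusted p = 0.13) on the HPD, and 0.60 (adjusted p = 0.035) without Veh HPD replicate 4. Gclm separated on the NPD, at 28.9 to 37.7 CPM with veh and 39.98 to 47.5 CPM with cort, without being called (0.46, SE 0.21, adjusted p = 0.21). On the HPD Gclm spread from 21.6 to 57.9 CPM with cort around 26.0 to 29.95 CPM with veh, and its change of 0.45 was 0.17 without the library that held epididymis transcripts and 0.64 (adjusted p = 0.045) without Cort HPD replicate 3. The other members gave log2 fold changes from -0.50 (Nqo1, NPD) to 0.77 (Nqo1, HPD), none of them called. Nqo1 was at 3.47, 2.11, 4.65 and 9.98 CPM in Cort HPD, where the highest value was again that of the library with epididymis transcripts, and without it the HPD change was 0.21 (adjusted p = 0.90). The log2 fold change of Nfe2l2 was 0.15 and 0.21 (adjusted p = 0.55 and 0.36), that of Txnrd1 0.46 and 0.07 (0.083 and 0.87), that of Gsr -0.09 and -0.29 (0.89 and 0.56) and that of Gpx1 -0.32 and -0.28 (0.22 and 0.32) on the NPD and the HPD.

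**Figure D2:**
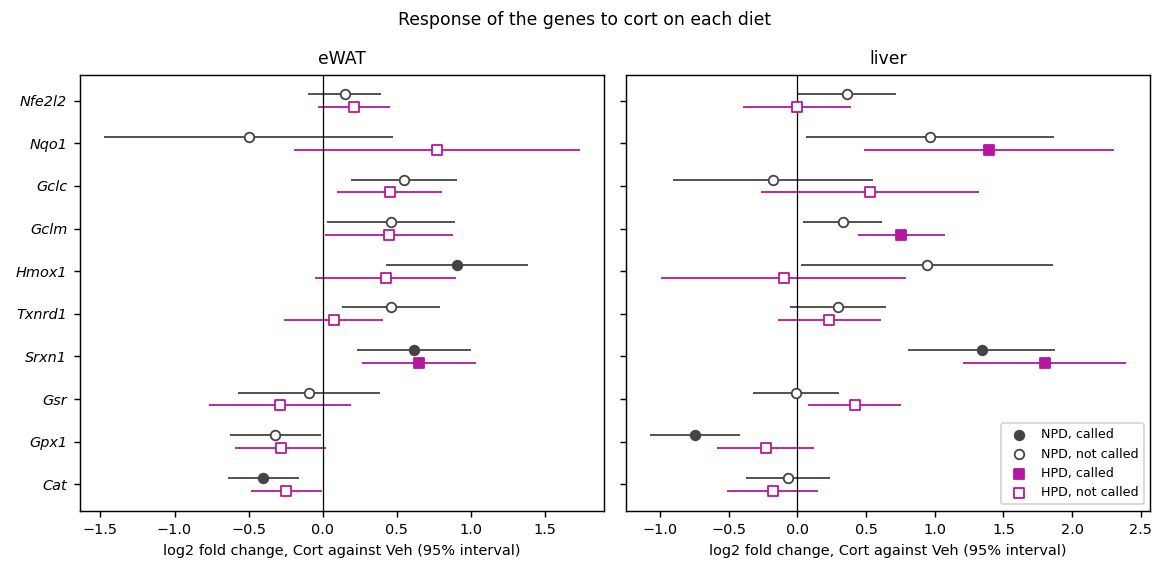
Log2 fold change of each gene with cort, in eWAT (left) and liver (right), on the NPD (grey circles) and the HPD (magenta squares), with the 95% interval of the fit as a line; filled symbols are called at an adjusted p under 0.05. Srxn1 is filled in all 4 comparisons (0.62 and 0.65 in eWAT, 1.34 and 1.80 in liver), and Gpx1 in liver on the NPD (-0.75) lies farthest to the left of the filled symbols.

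In veh-treated mice 0 of the 10 were called in eWAT and in liver by edgeR, where 0.0593% and 0.169% of all genes were, and 2 of the 10 had an unadjusted p under 0.05 in each tissue. Cat in eWAT, 1 of the 10 without overlap (4.28% of all genes), was at lower levels on the HPD (445.1 to 566.5 against 581.1 to 697.2 CPM, log2 fold change -0.32, adjusted p = 0.41), and Gclc differed by 0.42 (adjusted p = 0.52). Hmox1 in liver was at 18.8, 12.4 and 4.73 CPM in Veh HPD against 2.69 to 4.25 CPM in Veh NPD, which gave a log2 difference of 1.81 (edgeR, SE 0.45, adjusted p = 0.15). Every Veh HPD library of liver lay above every Veh NPD library for Hmox1, the 1 member without overlap (9.47% of all genes), and DESeq2 called it (1.79, adjusted p = 0.0036), as did edgeR without Veh HPD replicate 3 (2.19, adjusted p = 0.016). With the left-out library of that group put back (23.6 CPM) it was 2.11 (adjusted p = 0.078). DESeq2 and limma voom called 0 members for the diet in veh-treated eWAT.

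In cort-treated mice the HPD raised Gpx1 in liver, from the 1247 to 1877 CPM of Cort NPD to 2129 to 2472 CPM in Cort HPD, a log2 fold change of 0.55 (edgeR, SE 0.16, adjusted p = 0.042). It was 1 of the 10 genes called, beside 5.88% of all genes (3.08% higher, 2.80% lower), and the call was lost in 6 of 15 fits, those without Cort NPD replicates 3 or 4 or any 1 of the 4 Cort HPD libraries (0.47 to 0.57, adjusted p from 0.062 to 0.14). It was also lost with all 16 libraries (adjusted p = 0.11), with library totals (0.38, adjusted p = 0.13), with the replicate block (adjusted p = 0.062) and with only the 2 groups compared (adjusted p = 0.084). Nqo1 and Gclm lay just outside the threshold. Nqo1 was at 7.73 to 11.5 CPM in Cort HPD and 2.23 to 5.71 CPM in Cort NPD (1.30, SE 0.39, adjusted p = 0.057), and Gclm at 125.7 to 167.6 and 100.1 to 116.2 CPM (0.45, SE 0.14, adjusted p = 0.058). DESeq2 called both (adjusted p = 0.014 and 0.020) and also Gclc (0.040). In edgeR Nqo1 was called without Veh NPD replicates 1 or 4 or Cort NPD replicate 4 (1.30 to 1.64, adjusted p from 0.0094 to 0.041), Gclm without Cort HPD replicate 4 (0.52, adjusted p = 0.041) and Gclc without Cort NPD replicate 4 (1.23, adjusted p = 0.039). Libraries did not overlap for 4 of the 10, Nqo1, Gclm, Gsr and Gpx1, all higher on the HPD, beside 13.3% of all genes. Gclc, Srxn1, Hmox1, Gsr and Txnrd1 differed by 0.88, 0.64, 0.76, 0.39 and 0.33 without being called, and Nfe2l2 by -0.31 (adjusted p = 0.31). Without Cort NPD replicate 4, its highest library, Srxn1 differed by 1.001 (adjusted p = 0.0066). In eWAT 0 of the 10 were called by edgeR (0.487% of all genes), by DESeq2 or by limma voom, and 2 had an unadjusted p under 0.05. These were Hmox1, the 1 member without overlap (6.66% of all genes), which was at lower levels on the HPD (9.28 to 15.96 against 17.1 to 20.9 CPM, -0.51, adjusted p = 0.46), and Nqo1 (1.09, adjusted p = 0.43), whose difference was 0.52 without the library with epididymis transcripts.

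Whether the response to cort depended on the diet was tested as an interaction. Of the 10 members 0 were called in eWAT (0.0132% of all genes) and 0 in liver (0.113% of all genes) by edgeR, DESeq2 or limma voom, and 0 and 2 had an unadjusted p under 0.05, the latter Gclm (0.42, adjusted p = 0.41) and Gpx1 (0.52, adjusted p = 0.37). The interaction of Srxn1 in liver was 0.46 with a 95% interval from -0.32 to 1.23, and with all 16 libraries it turned to -1.02 (adjusted p = 0.66). That of Hmox1 was -1.04 (95% interval -2.32 to 0.23), and -1.34 (adjusted p = 0.38) with all 16. In eWAT it was 1.27 for Nqo1 (95% interval -0.10 to 2.65; 0.71 without the library with epididymis transcripts) and -0.48 for Hmox1 (95% interval -1.16 to 0.19). Calls of cort on a single diet, of Gclm, Nqo1 and Gpx1 in liver or Hmox1 and Cat in eWAT, were thus not shown to differ between diets.

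The response of liver was set against that of eWAT in a fit of both tissues over 31 libraries. On the NPD 0 of the 10 members differed by edgeR (3.85% of all genes, 2.51% with the higher and 1.35% with the lower response in liver), and on the HPD 0 did (3.12% of all genes, 1.11% and 2.01%), with 2 at an unadjusted p under 0.05 on each diet. The largest of these on the HPD was Srxn1, whose log2 fold change in liver exceeded that in eWAT by 1.12 (SE 0.33, adjusted p = 0.059), while DESeq2 called it (1.17, adjusted p = 0.018). In edgeR it was called without any 1 of eWAT Veh NPD replicates 1 and 4, Cort NPD replicates 1 and 3 and Cort HPD replicates 2 and 3, or of liver Cort NPD replicates 1 and 4 and Cort HPD replicate 3 (1.11 to 1.28, adjusted p from 0.015 to 0.049). With the library left out put back, that difference was -0.31 (adjusted p = 0.89). On the NPD Srxn1 differed by 0.77 (adjusted p = 0.20) and Nqo1 by 1.51 (adjusted p = 0.21), which was 2.36 (adjusted p = 0.022) without liver Veh NPD replicate 4.

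In veh-treated mice on the NPD, 7 of the 10 members were higher in liver than in eWAT, where 29.0% of all genes tested were called higher in liver, 33.7% lower and 62.7% in either direction. Gclc was higher by 3.17 on the log2 scale (SE 0.30), Gclm by 2.51 (SE 0.19), Cat by 2.14 (SE 0.14), Srxn1 by 1.72 (SE 0.23), Gsr by 1.67 (SE 0.20), Gpx1 by 1.61 (SE 0.17) and Txnrd1 by 1.07 (SE 0.17), with adjusted p from 3.0e-15 to 1.8e-06 in edgeR. Nfe2l2 (0.11), Nqo1 (0.16) and Hmox1 (-0.55) were not called. The median over all genes was -0.26 and rested on the scaling: with library totals in place of TMM factors it moved by -1.02. Under that scaling Gclc (2.14), Gclm (1.49), Cat (1.12), Srxn1 (0.71), Gsr (0.64) and Gpx1 (0.596) were called higher in liver by smaller differences, Txnrd1 was not called (0.065), and Nfe2l2 (-0.90) and Hmox1 (-1.56) were called lower in liver.

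The wider pathway was read from 8 lists with 136 further genes, of which 125 were tested in eWAT and 127 in liver. Cort raised 16 and lowered 8 of them in eWAT on the NPD, where 4.05% of all genes were called higher and 3.93% lower, and raised 13 and lowered 5 on the HPD, where 3.46% and 2.63% were. In liver it raised 18 and lowered 13 on the NPD (6.84% and 5.79% of all genes). On the HPD it raised 19 and lowered 9 there (4.75% and 5.14% of all genes). With all 16 liver libraries it raised 12 and lowered 6 on the NPD and raised 12 and lowered 8 on the HPD. Shares of all genes in that fit of 16 are not given here, so its counts show no change particular to these lists. The median log2 fold change of the tested genes was 0.06 and 0.15 in eWAT and 0.08 and 0.09 in liver. Of the regulators of NRF2, 0 of 13 tested in eWAT and 0 of 12 in liver were called with cort by edgeR on either diet, with an unadjusted p under 0.05 for 5 and 1 in eWAT and for 1 and 3 in liver on the NPD and the HPD. With all 16 liver libraries 1 regulator was called, Mafg, a small MAF partner of NRF2, lower on the HPD (-0.50, adjusted p = 0.045), which is named after its value was seen. Keap1, the sensor that holds NRF2, had log2 fold changes of 0.32 and 0.25 in eWAT (adjusted p = 0.10 and 0.25) and of 0.01 and 0.22 in liver (adjusted p = 0.98 and 0.48).

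In eWAT the genes called higher included peroxiredoxins and enzymes that supply NADPH, the reductant that Gsr and Txnrd1 use. Prdx6, a peroxiredoxin that reduces phospholipid peroxides, rose from 459.6 ± 51.1 to 2167 ± 234.4 CPM (SD, n = 4) on the NPD and from 451.5 ± 135.6 to 1786 ± 173.9 CPM on the HPD, log2 fold changes of 2.24 (edgeR, SE 0.16, adjusted p = 1.4e-10) and 1.98 (SE 0.16, adjusted p = 1.9e-09). Prdx5 and Prdx1 also rose on both diets, by 0.39 to 0.63, so that 3 of 21 thioredoxin and peroxiredoxin genes rose and 0 fell on each, beside the 4.05% and 3.46% of all genes that were called higher on the NPD and the HPD. Of 10 NADPH genes 4 rose on the NPD and 3 on the HPD, among them G6pdx and Pgd of the pentose phosphate pathway (1.02 and 1.12 on the NPD, 1.15 and 0.82 on the HPD) and Idh1 (0.40 and 0.51). Of 19 glutathione enzymes 2 rose on each diet, Slc3a2 (1.09 and 1.19), a subunit of the cystine transporter and of other amino acid transporters, and the glutaredoxin Glrx3 (0.63 and 0.81). The glutathione S-transferases, which join glutathione to foreign compounds, split, with Gsta3 (1.66 on the NPD) and Gsto1 (0.94 and 0.97) higher and Mgst1 (-0.66 and -0.54) lower on both diets. Of the phase 2 detoxification and export genes, Ephx2 and Abcc1 fell on both diets and Ephx1 fell on the NPD. Sult1a1 of that list rose on the NPD, and Osgin1 and Akr1a1 rose on the HPD. Of the heme and iron genes, Slc48a1 rose on both diets and Tfrc on the NPD. Of 11 genes of superoxide dismutases and oxidant sources, the phagocyte oxidase subunits Cybb (-0.59) and Cyba (-0.46) fell and Xdh, xanthine dehydrogenase, rose (0.57) on the NPD, and Ncf1 (-0.78) fell on the HPD. Near-identical S-transferase genes can share reads, so single members of that family are uncertain.

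In liver Gpx3, the secreted glutathione peroxidase, rose from 4.83 ± 0.850 to 30.9 ± 5.80 CPM (SD, n = 4) on the NPD, a log2 fold change of 2.67 (edgeR, SE 0.20, adjusted p = 5.6e-09), and by 2.17 on the HPD. Glrx, a glutaredoxin, rose by 1.29 and 1.24, and Gss, which completes glutathione, rose on the HPD (0.94). Of the same list, Glo1 (-0.525) and Hagh (-0.56) fell on the NPD and Chac1 (-1.91) fell on the HPD. Gstt3 (2.34 and 1.69), Gstm2 (1.72 and 1.44) and Gstm3 (2.34 and 2.37) were higher and Gsta4 (-1.64 and -0.93) and Gstm6 (-1.08 and -0.86) lower. Cbr1, a carbonyl reductase, rose by 1.67 and 1.71 and Htatip2 by 0.79 and 1.43, and Ugdh rose on the HPD (1.69). Of the same list, Abcg2 (-0.57) fell on the NPD and Gdf15 (-2.42) and Ephx2 (-0.53) on the HPD. Unlike in eWAT, G6pdx fell in liver on the HPD (-2.20), while the transcripts of Idh2 (0.58) and Nnt (0.64), of the NADPH list, rose on the NPD. Whether the Nnt transcript gives working protein in these C57BL/6J mice was not tested, so its rise is not read as NADPH supply. Of the thioredoxin and peroxiredoxin list, Selenop (0.64) and Prdx6 (0.51) rose and Selenos (-0.86) fell on the NPD, and Msra (0.46) rose on the HPD. Of 11 genes of superoxide dismutases and oxidant sources 5 fell on the NPD and 3 on the HPD and 0 rose (5.79% and 5.14% of all genes were called lower). Ncf1 (-1.34 and -1.87) and Cybb (-1.32 and -1.05), parts of the phagocyte oxidase, and Nox4 (-0.85 and -0.75) fell on both diets. The other two on the NPD were Cyba and Ccs, the copper chaperone of a superoxide dismutase, named after their values were seen. The macrophage marker sums of these livers are given above with Hmox1, and their part was not tested. Fth1 (0.53 and 0.68), the ferritin heavy chain, and the iron exporter Slc40a1 (0.62 and 1.04) rose on both diets, while Hmox1 itself was not called. Slc48a1, of the same list as Fth1, rose on the HPD (0.65). Hpx, the plasma heme carrier, fell on the NPD (-0.66). With the left-out library put back, the calls of Glrx, Gstt3, Gstm2, Gsta4, Ncf1, Cybb and Slc40a1 stood on both diets. Those of Gpx3 (0.53, adjusted p = 0.64) and Cbr1 (0.70, adjusted p = 0.34) were lost on the HPD and stood on the NPD (adjusted p = 0.032 for each). Gstm3 (adjusted p = 0.12 and 0.72), Htatip2 (0.37 and 0.67) and Nox4 (0.38 and 0.73) were lost on both diets, Fth1 on the NPD (adjusted p = 0.065), and Gss (adjusted p = 0.13) and Gstm6 (0.070) on the HPD. Also lost were Glo1 (0.17), Hagh (0.12), Hpx (0.066), Idh2 (0.062), Prdx6 (0.12) and Abcg2 (0.08) on the NPD. On the HPD Ephx2 (0.48), Ugdh (0.065) and Slc48a1 (0.06) were lost too. Chac1 (0.013), G6pdx (0.025), Gdf15 (0.0068) and Msra (0.029) stood on the HPD, and Nnt (0.025), Selenop (0.034) and Selenos (0.015) on the NPD. Of the list of superoxide dismutases and oxidant sources 2 genes then fell on each diet, Ncf1 and Cybb, and Sod2, a superoxide dismutase named after its value was seen, rose on the HPD (0.55, adjusted p = 0.030).

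**Figure D3:**
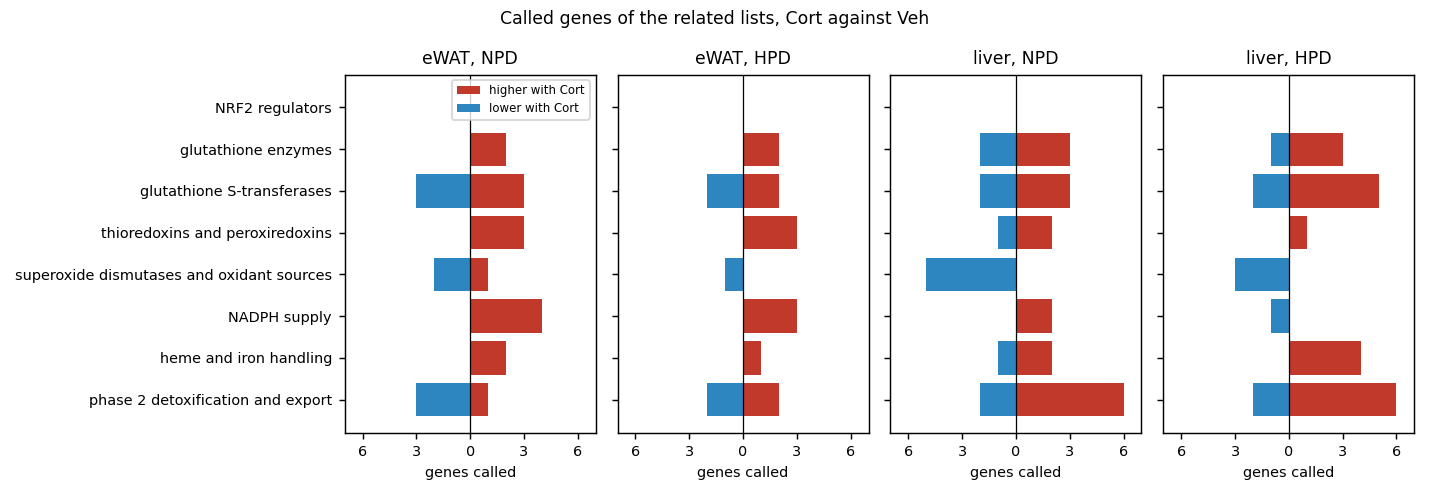
Number of genes called higher (red, to the right) and lower (blue, to the left) with cort in each of the related lists, for eWAT and liver on each diet. The NRF2 regulators have no bar in any panel, the NADPH genes have bars to the right in eWAT on both diets (4 and 3 genes), and the list of superoxide dismutases and oxidant sources has bars to the left in liver (5 and 3 genes).

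Across the libraries of a tissue the members did not move as a single block. In liver Nqo1 had a Pearson correlation of 0.75 with Srxn1 and 0.73 with Gclm over 15 libraries that share the treatment groups, and of -0.09 with Nfe2l2. The genes most like Nqo1 in liver were Ppp4r4 (0.95), Adora1 (0.95) and the S-transferase Gsta2 (0.93). Those most like Nfe2l2 in liver were Pds5b (0.88), Map2k5 (0.82) and Vps13c (0.81), and in eWAT Ptges3 (0.83), Ap1s1 (0.82) and Nrbf2 (0.82) over 16 libraries. In eWAT Nqo1 was most like Vps37b (0.85), Cttnbp2 (0.83) and Rasgrf1 (0.81). These are descriptions over all genes tested, and the highest of many correlations is high by selection.

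The liver library that was left out differed in these genes too. Scaled with all 16 libraries, Veh HPD replicate 4 held Srxn1 at 285.4 CPM against 26.3 to 39.5 CPM in the other 3 libraries of its group, 8.21 times their mean, and Nqo1 at 19.5 CPM, 5.61 times their mean. Nfe2l2 (97.1 CPM), Txnrd1 (93.1 CPM) and Hmox1 (23.6 CPM) also lay above all 15 other liver libraries, and Gclm (64.3 CPM) and Cat (546.7 CPM) below them. So 5 of the 10 members were above and 2 below every other library, where 17.0% of 12282 genes were above and 16.1% below. Its hepatocyte marker sum was 50227 CPM, with 7 of 8 markers below those of every other liver library, and its macrophage sum 381 CPM. Its cholangiocyte sum was 123.6 CPM (at most 64.58 CPM in the other 15), its fibroblast sum 439.3 CPM (at most 416.2 CPM) and its exocrine pancreas sum 159.1 CPM (at most 148 CPM). The part of cell makeup in these values was not tested, and it is a single library.

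**Figure D4:**
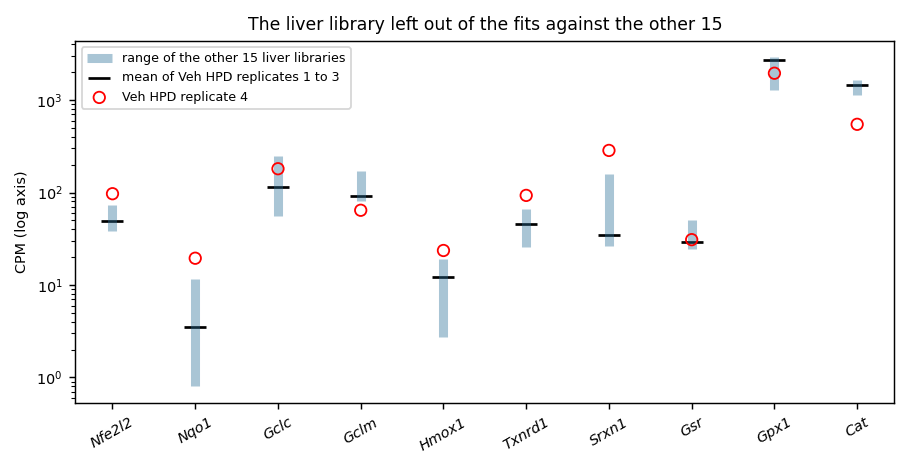
Level of each member in liver Veh HPD replicate 4 (open red circles), with the range over the other 15 liver libraries (blue bars) and the mean of Veh HPD replicates 1 to 3 (black dashes), in CPM on a log axis, all scaled in a fit of 16 libraries. Srxn1 (285.4 CPM), Nqo1, Nfe2l2, Txnrd1 and Hmox1 lie above the bars and Gclm and Cat below them.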

How the data were processed

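QuantSeq 3′ mRNA-seq libraries of eWAT and liver were read from a table of raw gene counts that the authors deposited, with 1 column per library. The submitters' processing notes name GRCm38 (mm10), R 4.0.3 and limma, and the aligner and counter are not given in the sources used here. IDs were matched to symbols with GENCODE mouse release 21 (47224 of 47643 matched). Groups followed the labels, and liver Veh HPD replicate 4, which stood apart, was left out of the fits. Each tissue was fitted with edgeR 4.0.16 (quasi-likelihood, robust, TMM factors, 4 groups) in R 4.3.3, on genes passing filterByExpr (minimum count 10, minimum total 15), and both tissues in a joint fit of 31 libraries. Tests were two-sided, with Benjamini-Hochberg adjustment over all genes tested and calls at an adjusted p under 0.05. The fits were also run on simulated data, with less spread than either tissue and larger changes than any member showed with cort. Those changes were placed in well-counted genes only, so the simulation does not bear on small changes or low-count genes. The common biological coefficient of variation was 0.372 in eWAT and 0.228 in liver. Alternatives were RLE factors, library totals, no filter on low counts, a replicate block, DESeq2 1.42.0, limma 3.58.1 voom with sample quality weights, only the 2 groups compared, all 16 liver libraries and each library left out. The members and the lists were chosen with earlier results of these data known. Named genes were the 10 members, Keap1, up to 3 called genes of each list in each direction with the smallest p per tissue, and the 3 genes most correlated with Nfe2l2 and Nqo1 in each tissue.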

Additional observations from a re-analysis of the deposited data

Results flagged for a closer look

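A library stood far from the rest of its group by Dixon's test in 6 of the 80 groups of 4 libraries tested, where chance gives about 4. In liver, Nqo1 was high in Veh NPD replicate 4 (4.227 CPM, the other 3 from 0.7904 to 1.299), in Cort HPD replicate 3 (11.48 CPM, the others from 7.734 to 8.242) and in Veh HPD replicate 4, the library left out of the fits (19.48 CPM, the others from 2.739 to 4.675). Srxn1 was high in the same left-out library (285.4 CPM, the others from 26.29 to 39.54). Cat was low in liver Cort HPD replicate 1 (1081 CPM, the others from 1294 to 1318), which also had the lowest TMM factor, 0.754. In eWAT, Txnrd1 was high in Veh NPD replicate 2 (39.83 CPM, the others from 30.73 to 32.24).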

How the results depend on the processing

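With 3 or 4 libraries a group, low-count genes such as Nqo1 have wide intervals, and small changes were not detectable. The number of members called with cort in eWAT on the NPD was 3, and 5 with limma voom or only the 2 groups compared (1 to 4 with 1 library left out). On the HPD it was 1, and 0 with library totals or only the 2 groups (0 to 2). In liver it was 2 on the NPD and 3 on the HPD, and 1 on each with all 16 libraries (2 to 3 with 1 left out, on each diet), and 2 on the HPD with library totals or no filter, both without Nqo1. For the diet in liver it was 0 with veh, and 1 by DESeq2 (0 to 1), and 1 with cort, and 0 with library totals or all 16 libraries, 4 by DESeq2 and 2 by limma voom (0 to 3). For the tissue difference it was 0 on the NPD (0 to 1) and 0 on the HPD, where RLE factors and DESeq2 gave 1 (0 to 1), and for liver against eWAT it was 7 in every leave-out fit. Shares of all genes are not set beside these counts, so they show no change particular to the members.

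Replicate numbers showed no pairing between the groups of a tissue. Same-numbered libraries of different groups had correlations of -0.115 to 0.253 in eWAT and -0.131 to 0.161 in liver. Libraries of different numbers had -0.178 to 0.218 and -0.222 to 0.201. Whether fat and liver libraries of the same number share a mouse was not tested. With the replicate block, the diet under cort in liver gained Nqo1 (1.45, adjusted p = 0.013) and lost Gpx1 (0.56, adjusted p = 0.062), and no other member's call changed. Library totals moved the median of all genes by -0.238 for cort in liver on the HPD (589 higher and 637 lower became 275 and 1272) and by -0.169 for the diet under cort (382 and 347 became 221 and 730).

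Of the 31 values that changed sign, 1 was past the threshold, Nfe2l2 in liver against eWAT with library totals (-0.900, adjusted p = 2.8e-05). Nqo1 there was -0.920 with totals, -0.287 with the block, -0.289 with limma voom and -0.697 to 0.469 with 1 library left out. With cort in liver on the HPD, Nfe2l2 was 0.006 with RLE factors and with DESeq2, 0.002 with no filter, 0.042 with the block, 0.081 with limma voom and -0.114 to 0.203 with 1 library left out, and Hmox1 was 0.131 with limma voom and -0.478 to 0.395 with 1 left out. With all 16 libraries Txnrd1 in that comparison was -0.089, Cat 0.072, the Srxn1 interaction -1.025 and the Srxn1 tissue difference on the HPD -0.314. Cat for the diet under cort in liver was 0.032 with limma voom and -0.069 to 0.048 with 1 left out. The other changes of sign came with 1 library left out, of cort on the NPD for Gsr in eWAT (-0.250 to 0.152), Gsr in liver (-0.066 to 0.026) and Cat in liver (-0.138 to 0.015), and of cort on the HPD for Txnrd1 in eWAT (-0.064 to 0.2). The cause was not tested.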

Other observations

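In cort-treated mice 14 genes of the related lists were called higher and 2 lower on the HPD in liver, of 127 tested, beside 3.08% and 2.80% of all genes. In eWAT 0 were higher and 1 lower of 125, where 0.487% of all genes were called. Those higher on the HPD in liver included Ugdh, which makes the sugar used in glucuronidation (log2 fold change 1.63, adjusted p = 2.2e-05 from edgeR), Hpx, the plasma heme carrier hemopexin (1.27, adjusted p = 3.1e-04), Htatip2 (1.17, adjusted p = 6.5e-04), Gsta4 (1.09, adjusted p = 0.020) and Gss (0.61, adjusted p = 0.032). Sqstm1, a regulator of NRF2 named after its value was seen, was also higher. The 2 lower were Ephx2 (-0.66, adjusted p = 0.01) and Nnt (-0.59, adjusted p = 0.039). With all 16 liver libraries 5 were higher and 0 lower, and the shares of all genes in that fit are not given here. Ugdh (adjusted p = 0.017), Hpx (0.0026) and Gsta4 (0.038) stood, and Htatip2 (0.22), Gss (0.16) and Sqstm1 did not.

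Known targets of the glucocorticoid receptor were read as a check of the treatment. In eWAT 3 of 13 rose on the NPD and 0 fell, and 2 rose and 3 fell on the HPD (4.05% and 3.93% of all genes on the NPD, 3.46% and 2.63% on the HPD). In liver 2 of 14 rose and 2 fell on the NPD, and 1 rose and 5 fell on the HPD (6.84% and 5.79% of all genes on the NPD, 4.75% and 5.14% on the HPD). Fkbp5 rose on the NPD in eWAT (1.74, adjusted p = 0.016) and in liver (2.23, adjusted p = 0.0094), and Lcn2 rose in liver on both diets (4.86 and 4.74). On the HPD Fkbp5 was not called in either tissue (1.15, adjusted p = 0.19 in liver, by edgeR). Nfkbia fell in liver on both diets (-0.65 and -0.63), and Per1 (-1.585) and Klf9 (-1.29) fell there on the HPD. In eWAT Mt2 rose on both diets and Lcn2 rose on the HPD, while Nfkbia, Sgk1 and Zbtb16 fell on the HPD. In liver the list thus moved in both directions on each diet. With all 16 liver libraries the Lcn2 change on the HPD was 2.66 (adjusted p = 0.061). The Nfkbia call on the HPD was then lost (adjusted p = 0.057), and those of Per1 (0.019) and Klf9 (0.031) stood.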
